A study of Mus musculus with 23 samples.

Results

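Linoleic acid (LA) with FGF1 was set against bovine serum albumin (BSA) with FGF1 in mouse retinal organoids at day 32 of differentiation, with strand-specific sequencing of poly(A) RNA. The members were 6 of the 23 libraries of the series, chosen by their labels: 3 of LA+FGF1 and 3 of BSA+FGF1, each numbered 1 to 3. In the LA+FGF1 organoids, LA bound to BSA was in the medium from day 10, and FGF1 at 200 ng/ml was added from day 26. The BSA+FGF1 organoids had BSA alone from day 10 and the same FGF1 from day 26. By the labels, both groups came from 1 induced pluripotent stem cell clone, which carries the Nrl-GFP reporter and was made from mouse embryonic fibroblasts with lentiviral Oct3/4, Sox2, Klf4 and c-Myc. Both groups also had taurine, 9-cis retinal and IGF1 from day 10 to day 26, and non-essential amino acids, B27 without vitamin A and serum from day 26. Neural retina was dissected out of the organoids by hand before RNA extraction, so the amount of other tissue left on each piece could differ between libraries. The labels speak of biological replicates without naming separate differentiation rounds, so the tests measure only the spread between these libraries.

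LA is an essential omega-6 fatty acid, which cells desaturate and elongate into arachidonic acid, store in lipid droplets, oxidise or build into phospholipids. Its relative docosahexaenoic acid (DHA) is the fatty acid for which photoreceptor outer segments are best known, and LA is not made into DHA. FGF1 signals through FGF receptors and ERK, and that pathway switches on its own feedback inhibitors, the Sprouty, Spred and dual-specificity phosphatase genes.

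Replicates 1 and 2 of both groups held 16330320 to 20510550 estimated counts per library, and replicate 3 of both groups held 11017149 and 11699980. Replicate 3 stood apart in other respects as well. Mitochondrial transcripts made up 11.7% and 11.9% of replicate 3, in LA+FGF1 and BSA+FGF1, and 3.02% to 3.87% of the other 4 libraries. Eif2s3y, a Y-linked translation factor gene, was at 29.9 and 57.8 CPM (counts scaled to the TMM-adjusted size of each library) in replicate 3, and Meg3, an imprinted noncoding RNA gene, was at 191 and 257 CPM, against at most 0.787 and 4.19 CPM elsewhere among the 6. The labels give a single clone for replicate 3 and the other 4 libraries alike, and what sets these levels apart was not tested. Principal component 1, with 79.7% of the variance among the 6, set replicate 3 of both groups apart from the rest, and these 2 libraries were among the 5 absent from the authors' normalized table. Samples were therefore compared within replicate number, and values are given for every pair. The retinal identity was plain in the 6 libraries, with Crx, the cone-rod homeobox factor, at 948 to 1304 CPM, while Pou5f1, the stem cell factor Oct4, was at 0.703 CPM or less.

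No gene passed the test between LA+FGF1 and BSA+FGF1. With edgeR's quasi-likelihood test and the replicate number as a block, 0 of 21124 genes (0%) had a Benjamini-Hochberg adjusted p under 0.05, and the smallest adjusted p was 1. At an unadjusted p under 0.05 there were 401 genes (1.9%), of which 324 (1.53%) were higher and 77 (0.365%) were lower in LA+FGF1. The log2 difference was above 0 for 9976 of all genes tested and below 0 for 11136. DESeq2 with the same design called 6 genes and limma voom with library quality weights called 197 (183 higher, 0.866% of genes, and 14 lower, 0.0663%), while limma voom without those weights called 0. The median 95% interval reached 0.74 on the log2 scale to either side of a gene's difference, before any adjustment. After adjustment the test found 32% of 2-fold and 62% of 4-fold changes in simulated counts of this comparison (20822 genes), so most 2-fold changes were not detectable here. Of the unchanged genes in the simulated counts, 4.56% had an unadjusted p under 0.05, against 1.9% of all genes in the data. The test was thus stricter on the data than on the simulated counts, and the shares found may be too high for the data. Everything below is therefore given as measured levels and differences, and none of it passed adjustment over all genes in the edgeR test.

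The genes with the smallest p among those higher in LA+FGF1 were a guidance cue, a DNA-editing enzyme, a fatty acid desaturase and several genes of glia and connective tissue. Sema6d, a transmembrane semaphorin that guides axons (chromosome 2, 124089969 to 124667770, GRCm38), was at 35.2, 57.2 and 31.1 CPM in LA+FGF1 replicates 1 to 3, against 15.7, 19.7 and 15.5 CPM in BSA+FGF1. All 3 LA+FGF1 libraries lay above all 3 BSA+FGF1 libraries, as they did for 1.79% of all genes, and the log2 difference was 1.25 (SE 0.25, 95% interval 0.71 to 1.79). Apobec3, a cytidine deaminase that restricts retroviruses (chromosome 15, 79891659 to 79915906), was at 25.5, 26.2 and 68.8 CPM in LA+FGF1, against 4.24, 5.54 and 27.0 CPM in BSA+FGF1. Replicate 3 was the highest of its group in both media and the groups overlapped, yet every pair was higher in LA+FGF1, by 2.55, 2.21 and 1.34 on the log2 scale. Its fitted log2 difference was 2.04 (SE 0.44). Emp1, an epithelial membrane protein gene, was higher in all 3 pairs with a log2 difference of 1.90, and Sparcl1, a matrix protein that astrocytes secrete, was higher by 1.13, 1.61 and 0.83 in pairs 1 to 3.

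**Figure D1:**
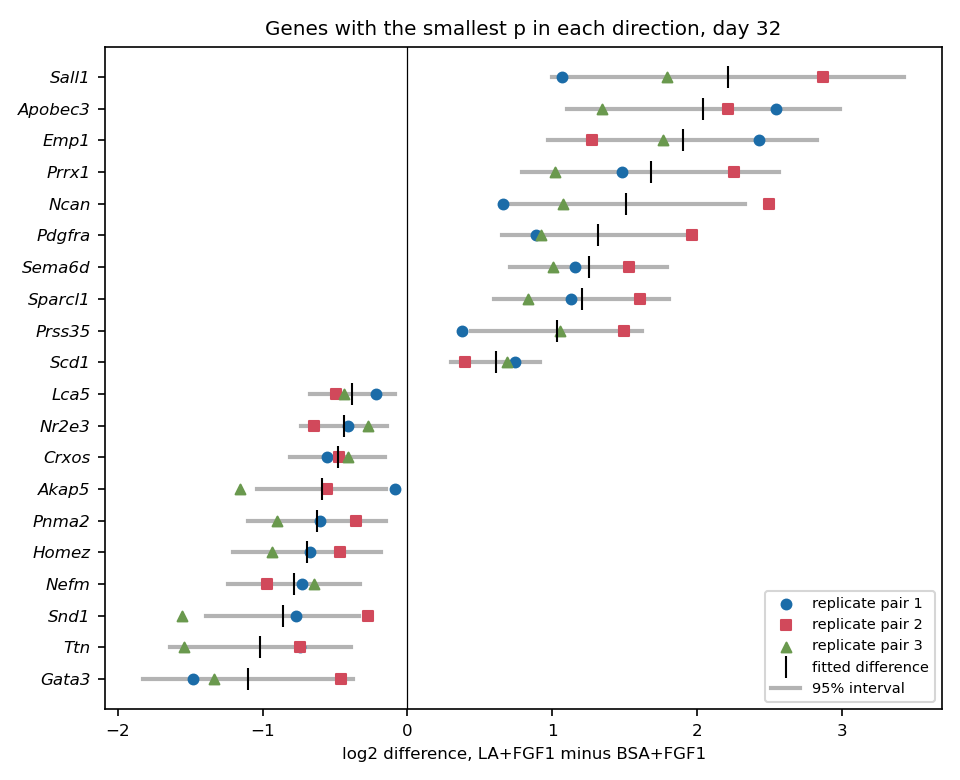
Log2 differences of LA+FGF1 minus BSA+FGF1 for the 10 genes in each direction with the smallest p. Symbols are the 3 replicate pairs, vertical ticks the fitted differences and grey bars their 95% intervals; fitted differences run from 2.21 for Sall1 down to −1.10 for Gata3, and the 3 pairs of each gene lie on 1 side of 0 because the naming rule asked for it.

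Among the genes with the smallest p that were lower in LA+FGF1 were a neurofilament gene and several genes of photoreceptors. Nefm, the medium neurofilament subunit of ganglion cell axons (chromosome 14, 68082590 to 68124846), was at 27.2, 18.9 and 20.1 CPM in LA+FGF1, against 45.1, 37.1 and 31.5 CPM in BSA+FGF1. The groups did not overlap (1.27% of all genes were lower without overlap), and the log2 difference was −0.78 (SE 0.21, 95% interval −1.24 to −0.33). Nr2e3, the nuclear receptor that represses cone genes in rods (chromosome 9, 59942771 to 59960659), was at 566, 464 and 328 CPM in LA+FGF1, against 752, 724 and 397 CPM in BSA+FGF1. LA+FGF1 was the lower of each pair, though replicate 3 of BSA+FGF1 lay below 2 of the LA+FGF1 libraries, and the log2 difference was −0.44 (SE 0.14, 95% interval −0.74 to −0.14). Crxos, which lies beside Crx, differed by −0.48, and Lca5, a gene of the photoreceptor cilium mutated in human Leber congenital amaurosis, by −0.38. Gata3, a transcription factor gene, differed by −1.10, Ttn, the giant sarcomere protein titin, by −1.02, and Snd1, a component of the RNA-silencing complex, by −0.86.

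The lipid genes, which handle the fatty acid that was supplied, differed little as a whole, and Scd1 was the clearest exception. Of 19 desaturase and elongase genes tested, 0 passed adjustment and 1 was higher at an unadjusted p under 0.05 (beside 1.53% of all genes). In all 3 pairs 9 were higher (11.1% of all genes were) and 1 was lower (14.3% of all genes), with a median log2 difference of 0.05 beside −0.01 over all genes. Scd1, the stearoyl-CoA desaturase that makes monounsaturated fatty acids (chromosome 19, 44394451 to 44407709), was at 78.4, 104 and 158 CPM in LA+FGF1, against 46.7, 78.6 and 98.2 CPM in BSA+FGF1. Each LA+FGF1 library exceeded its own pair, by 0.75, 0.40 and 0.69 on the log2 scale, while the groups as such overlapped. The fitted difference was 0.61 (SE 0.14, 95% interval 0.30 to 0.92). Its paralogues varied, with Scd2 at a log2 difference of 0.05 and Scd3 at −0.63. Scd4, at an average log2 CPM of only 0.28, differed by 0.50 and was higher in all 3 pairs. Scd1 to Scd4 are similar in sequence, so the authors' counting may have shared reads among them.

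The enzymes that carry LA towards arachidonic acid showed no such difference. Fads1, the delta-5 desaturase, was at 214, 225 and 201 CPM in LA+FGF1, against 207, 210 and 194 CPM in BSA+FGF1. Fads2, the delta-6 desaturase of the first step, was at 128, 149 and 27.0 CPM in LA+FGF1, against 111, 147 and 33.7 CPM in BSA+FGF1. The groups overlapped for both genes, and Fads2 was far lower in replicate 3 of both media. The log2 differences were 0.07 (95% interval −0.19 to 0.32) for Fads1 and −0.03 (SE 0.45) for Fads2. The elongase of this path, Elovl5, differed by 0.20. Fads1 and Elovl5 were higher in all 3 pairs (beside 11.1% of all genes) and Fads2 in 2. Outside this path, the elongase Elovl2 differed by −0.24.

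Among 16 genes of fatty acid synthesis and its regulator SREBP1, 13 were above 0, 2 were higher at an unadjusted p under 0.05 (Scd1, also on this list, and Thrsp, beside 1.53% of all genes) and the median log2 difference was 0.14, or 0.06 without pair 1. In all 3 pairs 7 of the 16 were higher (beside 11.1% of all genes) and 1 was lower (beside 14.3%). Thrsp, the Spot 14 gene that lipogenic stimuli induce in liver (chromosome 7, 97412938 to 97417730), was at 21.2, 14.1 and 4.07 CPM in LA+FGF1, against 4.82, 4.58 and 2.61 CPM in BSA+FGF1. Replicates 1 and 2 of LA+FGF1 were the highest of the 6 libraries, and replicate 3 of LA+FGF1 lay below 2 of the BSA+FGF1 libraries. The log2 difference was 1.50 (SE 0.57, 95% interval 0.28 to 2.72). Srebf1 itself, which encodes SREBP1, differed by 0.12, and Acaca, acetyl-CoA carboxylase, by 0.36. The promoter of Thrsp is shown because its product marks lipogenic transcription. RefSeq on GRCm38.p6 places the window from 250 bases before to 50 bases after the start site at chr7:97417501-97417800, minus strand, printed 5′ to 3′ with the CCAAT box, searched on both strands, in capitals (ATTGG on the other strand).
Thrsp promoter: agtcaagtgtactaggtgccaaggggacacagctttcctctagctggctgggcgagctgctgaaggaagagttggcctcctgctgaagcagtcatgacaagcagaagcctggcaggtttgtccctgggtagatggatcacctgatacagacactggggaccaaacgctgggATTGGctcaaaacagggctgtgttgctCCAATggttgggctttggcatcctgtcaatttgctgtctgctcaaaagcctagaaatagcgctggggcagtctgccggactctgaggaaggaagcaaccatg
The window held 2 such boxes, and 37.4% of 32544 RefSeq promoter windows of the same length held at least 1.

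Most of the remaining lipid groups centred close to the median of all genes, and lipid droplet genes lay somewhat above it. Of 23 PPAR targets and fatty acid oxidation genes, which fatty acids can induce through PPAR receptors, 14 were above 0 and none had an unadjusted p under 0.05, with a median log2 difference of 0.07. Cpt1a, the gate of mitochondrial fatty acid oxidation, differed by −0.13 (95% interval −0.50 to 0.24), Angptl4, a lipase inhibitor and PPAR target, by −0.01 (−1.41 to 1.39), and Pdk4, the pyruvate dehydrogenase kinase, by 0.19. Angptl4 stood below 1 CPM in all 6 libraries. Of 22 cholesterol synthesis genes 17 were below 0, with a median of −0.07, and of 20 genes of fatty acid uptake, binding and activation 13 were below 0, with a median of −0.06. In all 3 pairs 6 of the uptake genes were lower (beside 14.3% of all genes) and none was higher (beside 11.1%). Of 15 genes of lipid droplets 12 were above 0, 3 were higher in all 3 pairs (beside 11.1% of all genes) and none had an unadjusted p under 0.05. Plin2, a droplet coat protein, differed by 0.23. The median was 0.22 over that list, with pair medians of 0.09, 0.17 and 0.08. It was 0.01 over 18 genes of phospholipid remodelling, of which 6 were higher in all 3 pairs (beside 11.1% of all genes) and 2 were lower (beside 14.3%). On the remodelling list Pla2g7, the phospholipase that cleaves platelet-activating factor, was at 110, 112 and 159 CPM in LA+FGF1, against 48.7, 66.8 and 137 CPM in BSA+FGF1. Pla2g7 was higher in every pair, though least in pair 3, with a log2 difference of 0.71 (95% interval 0.29 to 1.13). Over 17 eicosanoid and oxylipin genes, whose products derive from arachidonic acid, the median was 0.07. Alox5ap, the 5-lipoxygenase activating protein, differed by −2.43 on that list but stood below 1 CPM in all 6 libraries.

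**Figure D2:**
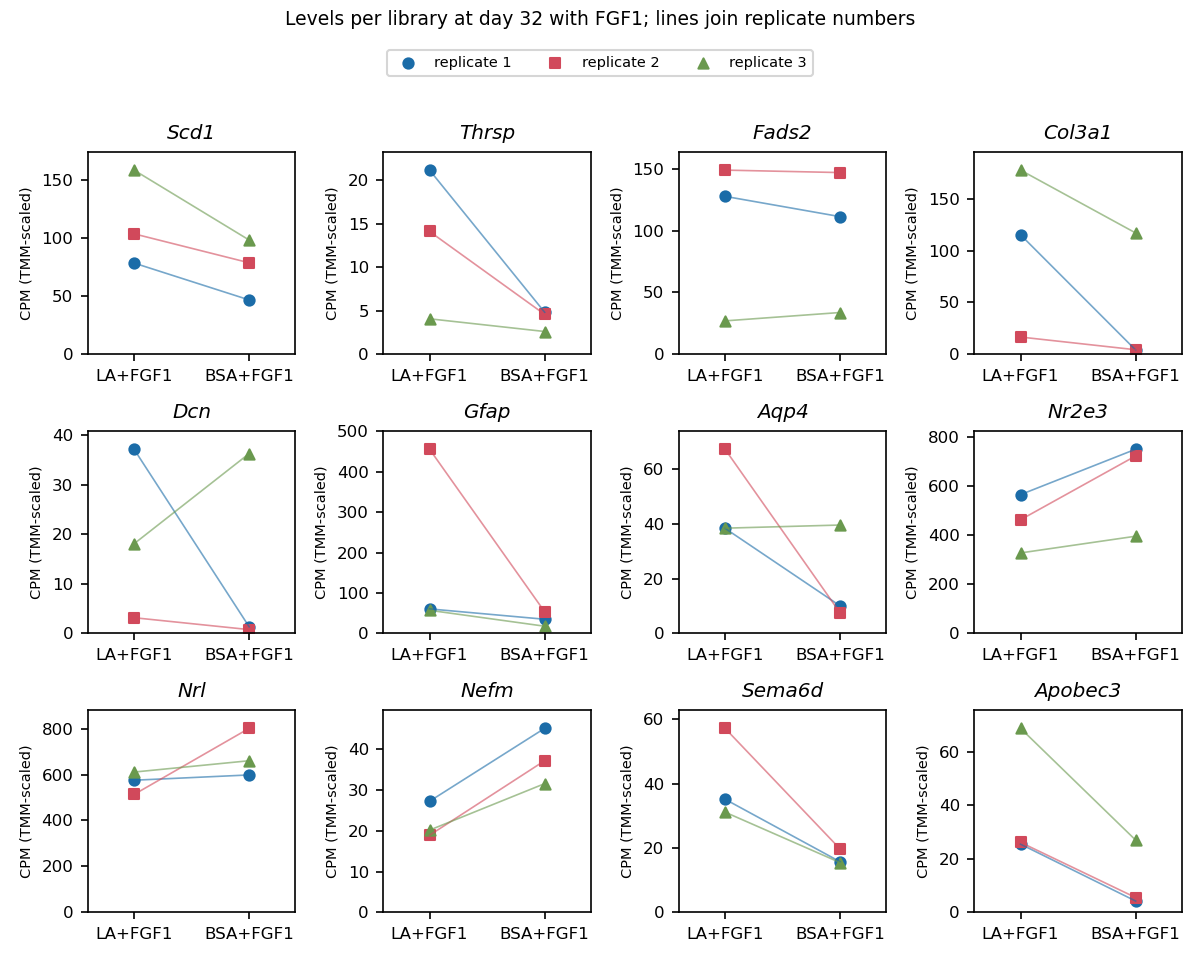
Levels in CPM (TMM-scaled, linear axes from 0) of 12 genes in the 6 libraries, LA+FGF1 on the left and BSA+FGF1 on the right of each panel, with lines joining the same replicate number. Scd1, Sema6d and Apobec3 were higher and Nefm and Nr2e3 lower in LA+FGF1 in all 3 pairs, Dcn crossed between pairs, and Gfap reached 456 CPM in 1 library, LA+FGF1 replicate 2.

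FGF feedback targets also differed little. Of 19 tested, 15 were above 0, none had an unadjusted p under 0.05, and the median log2 difference was 0.11, or 0.01 without pair 2. Dusp6, the ERK phosphatase, was at 54.9, 75.8 and 65.7 CPM in LA+FGF1, against 57.0, 86.2 and 68.1 CPM in BSA+FGF1. Spry4 was at 18.3, 19.9 and 15.0 CPM in LA+FGF1, against 17.6, 19.0 and 15.8 CPM in BSA+FGF1. The groups overlapped for both genes, and the log2 differences were −0.10 (95% interval −0.52 to 0.33) for Dusp6, 0.02 (−0.62 to 0.65) for Spry4 and 0.02 for the ETS factor gene Etv5.

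Photoreceptor genes were mostly a little lower in LA+FGF1. Of 18 rod genes, 16 were below 0, 7 were lower in all 3 pairs (beside 14.3% of all genes) and 1 was higher in all 3 (beside 11.1%). At an unadjusted p under 0.05, 1 (Nr2e3) was lower (beside 0.365% of all genes). Their median log2 difference was −0.21, with medians of 0.04, −0.50 and −0.21 in pairs 1 to 3. Nrl, the rod-determining leucine zipper factor whose promoter drives the reporter, was at 575, 513 and 611 CPM in LA+FGF1, against 598, 801 and 660 CPM in BSA+FGF1. LA+FGF1 was lower in each pair for Nrl, most clearly in pair 2, where the BSA+FGF1 library was the highest of the 6. The log2 difference was −0.27 (95% interval −0.62 to 0.09). Sag, the rod arrestin, ran the other way at 0.40. In bulk RNA, fewer rods and less of these RNAs per rod cannot be told apart.

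Genes shared by rods and cones leaned the same way. Of 23 tested, 21 were below 0, 8 were lower in all 3 pairs (beside 14.3% of all genes) and none had an unadjusted p under 0.05, with a median log2 difference of −0.16 and pair medians of −0.11, −0.39 and 0.04. Crx was at 971, 948 and 1188 CPM in LA+FGF1, against 1097, 1125 and 1304 CPM in BSA+FGF1, a log2 difference of −0.19 (95% interval −0.46 to 0.09). Its upstream activator Otx2 differed by −0.26 (95% interval −0.55 to 0.03) and Neurod1, a proneural factor, by −0.39 (−0.78 to 0.01), each lower in all 3 pairs. Without pair 2 the median of the shared list was −0.01 and that of the rod list −0.12, and without pair 1 the rod list was at −0.36. Cone genes had no common direction, with 7 of 14 above 0 and a median of 0.00. Thrb, the thyroid hormone receptor of cone fate, differed by −0.31 (95% interval −0.59 to −0.03). Opn1sw, the short-wavelength opsin, differed by −0.29, 0.82 and 2.71 in pairs 1 to 3, in opposite directions between pairs 1 and 3.

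The lists of inner retinal neurons had medians near that of all genes, least so the amacrine list. The median was −0.07 over 15 bipolar genes, −0.14 over 15 amacrine genes and −0.02 over 10 horizontal cell genes. It was 0.04 over 16 ganglion cell genes and −0.02 over 20 progenitor and neurogenic genes. Of the amacrine genes 12 were below 0 and 3 above. In all 3 pairs 4 of them were lower (beside 14.3% of all genes) and 1 was higher (beside 11.1%), and none had an unadjusted p under 0.05. The ganglion cell list held genes of both directions, with Slc17a6, the vesicular glutamate transporter, at 1.50 and Sncg, gamma-synuclein, at 1.03 beside Nefm at −0.78. Nfia, a gliogenic factor on the progenitor list, was at 45.2, 50.9 and 36.4 CPM in LA+FGF1, against 31.8, 26.2 and 28.8 CPM in BSA+FGF1. Its groups did not overlap, and the log2 difference was 0.61 (95% interval 0.14 to 1.08).

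Genes of astrocytes and gliosis leaned towards higher levels in LA+FGF1, while those of Müller glia were mixed. Of 16 Müller glia genes 11 were above 0, and 3 were higher at an unadjusted p under 0.05 (Aqp4, Sox9 and Slc1a3, beside 1.53% of all genes). In all 3 pairs 3 were higher (beside 11.1% of all genes) and 4 were lower (Rlbp1, Dkk3, Crym and Car2, beside 14.3%). The median log2 difference was 0.17, or 0.06 without pair 2, with pair medians of 0.27, 0.26 and −0.09. Rlbp1, the retinaldehyde-binding protein, differed by −0.09 and Glul, glutamine synthetase, by 0.15, while Sox9, a glial transcription factor, differed by 0.75 (95% interval 0.14 to 1.37) and Slc1a3, the glutamate transporter GLAST, by 0.60 (0.10 to 1.09). Aqp4, the water channel of glial endfeet, was at 38.4, 67.3 and 38.4 CPM in LA+FGF1, against 10.0, 7.44 and 39.6 CPM in BSA+FGF1, so that pairs 1 and 2 were higher and pair 3 was level. Of 13 genes of astrocytes and gliosis 11 were above 0 and 4 were higher in all 3 pairs (beside 11.1% of all genes), 3 were higher at an unadjusted p under 0.05 (beside 1.53%), and the median was 0.66, with pair medians of 0.77, 0.94 and 0.13. Gfap, the intermediate filament of astrocytes and reactive Müller glia (chromosome 11, 102887336 to 102900912), was at 60.4, 456 and 57.0 CPM in LA+FGF1, against 34.8, 53.2 and 17.6 CPM in BSA+FGF1. All LA+FGF1 libraries lay above all BSA+FGF1 libraries, and replicate 2 of LA+FGF1 exceeded the next library more than 7-fold. The log2 difference was 2.07 (SE 0.68, 95% interval 0.60 to 3.55). S100b, a calcium-binding astrocyte protein, differed by 1.99, and Nes, the intermediate filament nestin, by 0.66. The promoter of Gfap is shown because STAT3 is a known activator of this gene in reactive glia. RefSeq on GRCm38.p6 places the 300-base window at chr11:102897151-102897450, minus strand, printed 5′ to 3′ with matches to the STAT-type motif TTCNNNGAA, which reads the same on both strands, in capitals.
Gfap promoter: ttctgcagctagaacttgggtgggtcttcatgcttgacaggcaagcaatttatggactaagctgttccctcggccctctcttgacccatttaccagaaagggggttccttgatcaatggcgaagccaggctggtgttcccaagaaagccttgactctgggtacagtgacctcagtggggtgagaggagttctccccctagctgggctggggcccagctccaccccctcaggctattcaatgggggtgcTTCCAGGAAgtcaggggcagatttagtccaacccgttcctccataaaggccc
There was 1 match, and 8.33% of the promoter windows held one. Stat3 itself differed by 0.25.

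Connective tissue genes showed some of the largest differences, and they varied widely among pairs. Of 17 mesenchyme and fibroblast genes, 16 were above 0, 7 were higher at an unadjusted p under 0.05 (beside 1.53% of all genes) and 7 were higher in all 3 pairs (beside 11.1%). The median log2 difference was 1.32, with pair medians of 1.53, 1.05 and −0.10, and it was 0.56 without pair 1 and 1.66 without pair 3. Pdgfra, a receptor of mesenchymal and glial precursors (chromosome 5, 75152292 to 75198215), was at 31.0, 46.4 and 71.5 CPM in LA+FGF1, against 16.7, 11.8 and 37.6 CPM in BSA+FGF1. It was higher in every pair, by 0.89, 1.96 and 0.92, with a fitted log2 difference of 1.32 (SE 0.31, 95% interval 0.65 to 1.98). Col3a1, fibrillar collagen III (chromosome 1, 45311538 to 45349706), was at 115, 16.6 and 178 CPM in LA+FGF1, against 4.03, 4.31 and 117 CPM in BSA+FGF1. The LA+FGF1 libraries thus ranged over 10-fold among themselves, the 2 lowest values were both of BSA+FGF1, and the log2 difference was 2.52 (SE 0.86, 95% interval 0.65 to 4.39). Dcn, the proteoglycan decorin, was at 37.1, 3.15 and 18.0 CPM in LA+FGF1, against 1.31, 0.748 and 36.2 CPM in BSA+FGF1, with pair 3 lower in LA+FGF1. Prrx1, a mesenchymal homeobox factor, differed by 1.68 and Fn1, fibronectin, by 1.58, each higher in all 3 pairs. Limma voom with quality weights called 8 of the 17, all higher (beside 0.866% of all genes): Col1a1, Col1a2, Col3a1, Pdgfra, Pdgfrb, Prrx1, Fbn1 and Acta2. Of these, Col1a1, Col1a2 and Acta2 were higher in only 2 of the 3 pairs, and limma voom without the weights called 0 genes.

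Neighbouring tissues of the eye gave a like picture. Of 20 collagen and basement membrane genes 18 were above 0, with a median log2 difference of 0.43, or 0.78 without pair 3. Col12a1, which was highest in replicate 3 of both media, differed by 1.18 (95% interval 0.41 to 1.95). Of 16 pigment epithelium and melanin genes 12 were above 0, with a median of 0.77 and pair medians of 0.90, 1.27 and −0.16. That median was 0.32 without pair 1, 0.15 without pair 2 and 1.38 without pair 3. Dct, a melanin synthesis enzyme, was at 48.3, 30.1 and 23.3 CPM in LA+FGF1, against 21.8, 10.6 and 23.8 CPM in BSA+FGF1, so pairs 1 and 2 were higher and pair 3 was level. Pmel, the melanosome scaffold, differed by 2.98 and 2.20 in pairs 1 and 2 and by −2.28 in pair 3. Mitf, the pigment cell master factor, differed by −0.05 and was not among the higher ones. The median was 0.58 over 15 ciliary margin genes, with pair medians of 0.62, 0.91 and −0.37, and it was 0.19 without pair 1 and 0.21 without pair 2. The summed level of the mesenchyme list was 610, 410 and 723 CPM in LA+FGF1, against 154, 121 and 489 CPM in BSA+FGF1, and that of the pigment list was 819, 754 and 455 CPM, against 660, 576 and 560 CPM. The part of such tissue on the dissected pieces in the differences of retinal genes was not tested.

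**Figure D3:**
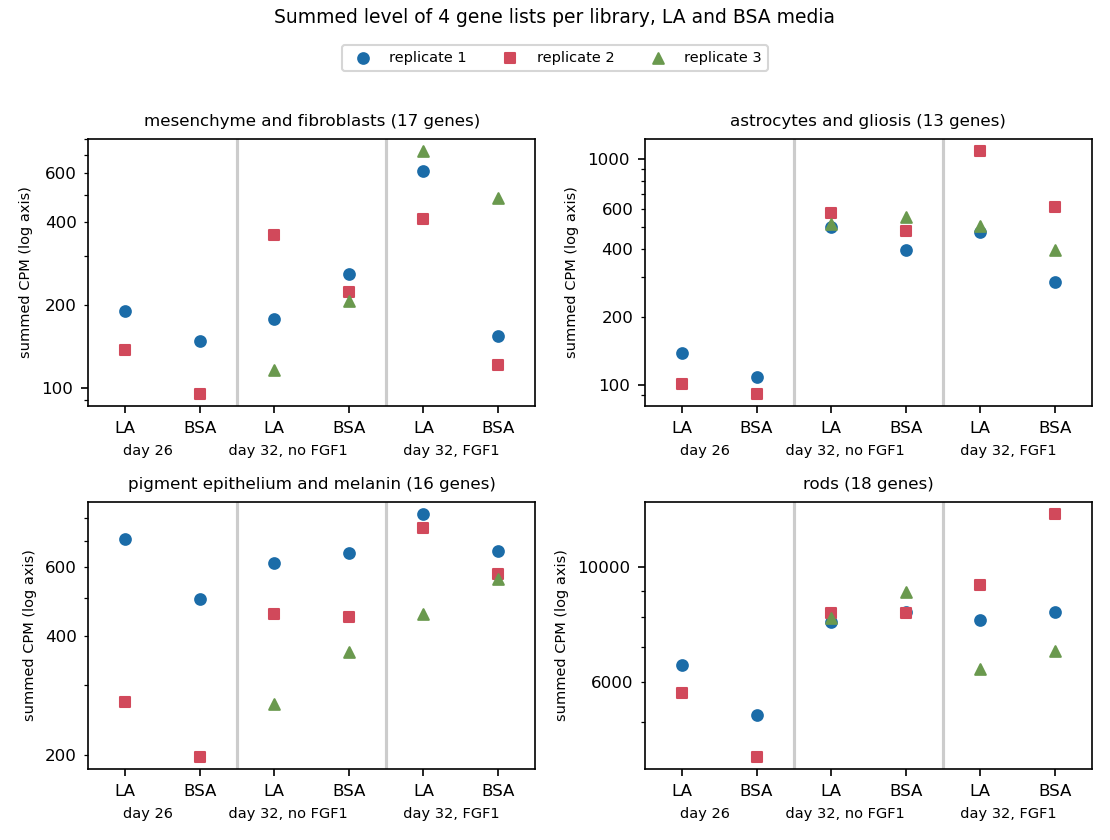
Summed CPM (TMM-scaled, log axes) of 4 gene lists in each LA and BSA library at day 26, at day 32 without FGF1 and at day 32 with FGF1, LA left of BSA in each pair. Mesenchyme genes reached 410 to 723 CPM in LA+FGF1, above replicates 1 and 2 of BSA+FGF1 at 154 and 121 CPM, and rod genes were highest in BSA+FGF1 replicate 2.

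Genes of brain regions were at low levels, and most were higher in LA+FGF1. Of 12 tested, 11 were above 0, 5 were higher at an unadjusted p under 0.05 (beside 1.53% of all genes) and 5 were higher in all 3 pairs (beside 11.1%). The fitted median log2 difference was 1.78, above the median of each single pair, which was 0.49 in pair 1, 0.71 in pair 3 and highest in pair 2. It was 0.67 without pair 2 and 0.85 when only the 6 libraries were fitted. Emx2, a cortical homeobox factor, was at 2.12, 2.41 and 4.07 CPM in LA+FGF1, against 0.262, 0.440 and 1.31 CPM in BSA+FGF1. The groups did not overlap, and the log2 difference was 2.33 (95% interval 0.54 to 4.11). Dlx1, an interneuron factor also found in retinal precursors, was at 0.826, 15.2 and 2.42 CPM in LA+FGF1, against 1.15, 1.36 and 0.301 CPM in BSA+FGF1. LA+FGF1 replicate 2, which had the highest Gfap, also had the highest Dlx1, and it had Olig2, an oligodendrocyte and progenitor factor, at 15.1 CPM against at most 2.61 CPM in the other 5 libraries. The list's summed level was 21.3, 46.0 and 33.8 CPM in LA+FGF1, against 13.7, 14.1 and 15.5 CPM in BSA+FGF1.

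**Figure D4:**
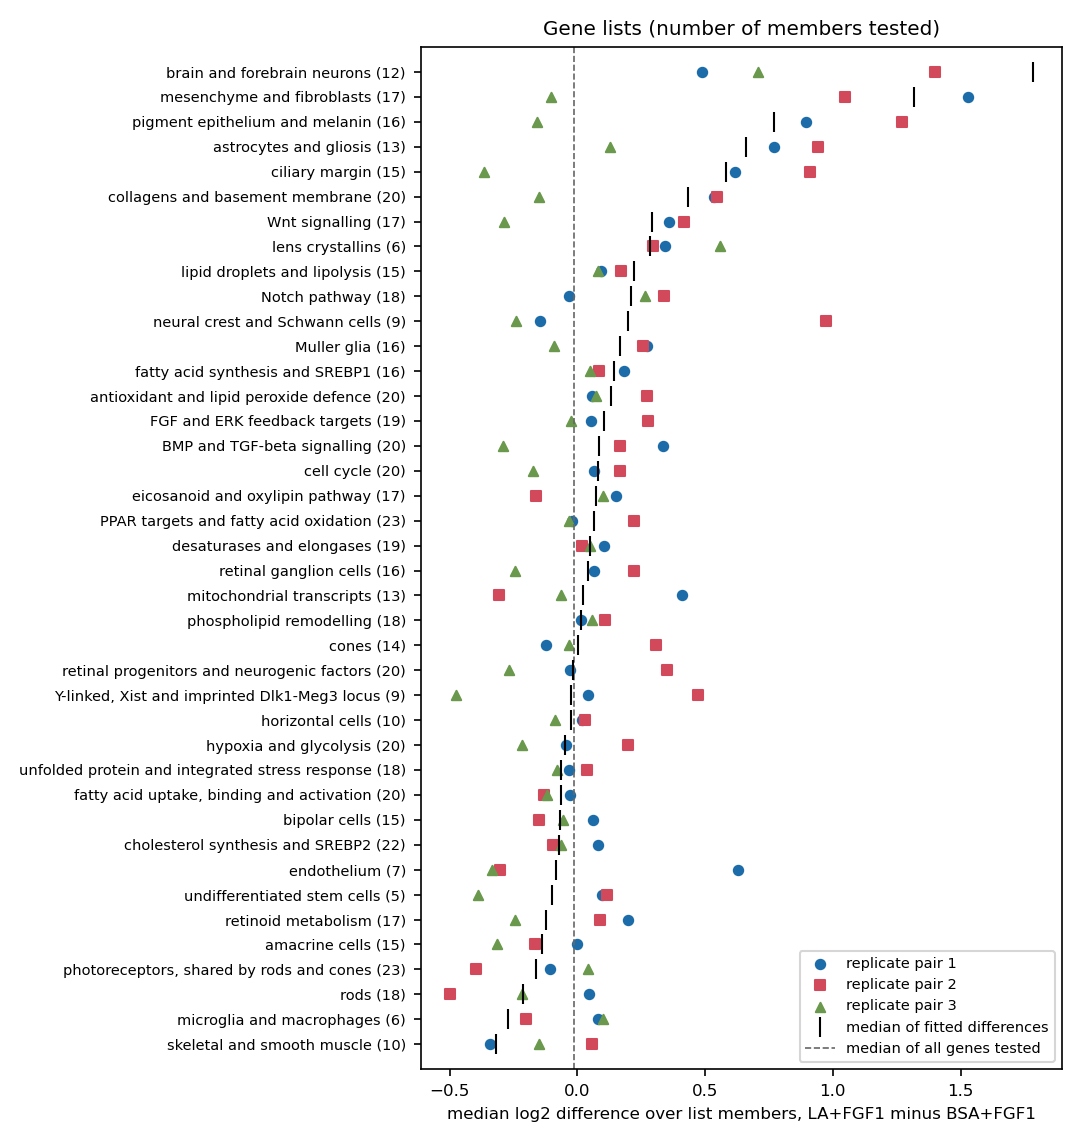
Median log2 difference of LA+FGF1 minus BSA+FGF1 over the tested members of each of the 40 gene lists, as fitted (vertical ticks) and in each replicate pair (symbols), beside the median of all genes (dashed line). Mesenchyme, pigment and ciliary margin lists were above 0 in pairs 1 and 2 and below 0 in pair 3, and most lipid lists lay close to the dashed line in all 3 pairs.

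Whether LA acted differently in the presence of FGF1 was tested on the difference of the LA effects, with day 32 organoids that had LA or BSA but no FGF1. Those 6 libraries were all shallower, so that depth moved with FGF1 in replicates 1 and 2. Without FGF1 it was replicate 1 that was absent from the authors' normalized table. That replicate had Eif2s3y at 69.8 CPM in LA and 58.9 CPM in BSA, and Meg3 at 139 and 309 CPM, whereas with FGF1 replicate 3 stood apart in this way. By edgeR's quasi-likelihood test 0 of 21124 genes passed (0%), with 695 (3.29%) at an unadjusted p under 0.05 and a smallest adjusted p of 0.19. DESeq2 called 24 and limma voom with quality weights called 1. That 1 was Apobec3, which was at 5.43, 1.94 and 0.548 CPM in LA and 15.8, 11.9 and 6.01 CPM in BSA without FGF1. It was lower with LA in all 3 pairs there and higher with LA in all 3 pairs with FGF1, and the difference of effects was 4.47 on the log2 scale (95% interval 3.04 to 5.91, adjusted p = 0.19 in edgeR). Snd1 was at 53.6, 91.6 and 24.8 CPM in LA and 25.1, 39.6 and 16.1 CPM in BSA without FGF1. With FGF1 it was at 73.6, 62.0 and 17.5 CPM in LA+FGF1, against 126, 74.8 and 51.7 CPM in BSA+FGF1. Its LA effect was thus positive in all 3 pairs without FGF1 and negative in all 3 with it, and the difference of effects was −1.86 (95% interval −2.61 to −1.11, adjusted p = 0.714 in edgeR). Cplane1, a ciliogenesis gene, gave −1.81 (adjusted p = 0.999 in edgeR). DESeq2 called both, with adjusted p of 0.00152 for Snd1 and 0.0324 for Cplane1.

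For the genes and lists with the larger differences, the values without FGF1 can be set beside those with it. Scd1 was at 110, 87.9 and 89.4 CPM in LA and 101, 90.7 and 91.1 CPM in BSA without FGF1, and its LA effect with FGF1 exceeded that without by 0.59 (95% interval 0.15 to 1.02). For Sema6d this difference was 1.02 (95% interval 0.26 to 1.78). The adjusted p of the difference of effects was 0.999 in edgeR for both genes. Both were named for their small p with FGF1. That comparison is part of the difference of effects, so the choice favours intervals away from 0. With FGF1 the median log2 differences were 1.32 for the mesenchyme list, 0.77 for the pigment list, 0.66 for the gliosis list and 1.78 for the brain list. For LA against BSA at day 32 without FGF1 they were −0.11 for mesenchyme, −0.32 for pigment, 0.00 for gliosis and 0.64 for brain. The rod list had −0.21 with FGF1 and −0.22 without it, and the shared photoreceptor list −0.16 and −0.18. The differences between these list medians were not tested.

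At day 26, before FGF1, the same media were compared in 2 LA and 2 BSA libraries, and the difference from the LA effect at day 32 with FGF1 was tested likewise. By edgeR 0 genes passed (0%), with 170 (0.805%) at an unadjusted p under 0.05. The rod list had a median of 0.34 for LA against BSA at day 26, opposite in sign to that at day 32. The lists with the larger differences at day 32 with FGF1 were above 0 at day 26 as well, before any FGF1, with medians of 0.51 for mesenchyme, 0.67 for pigment, 0.45 for gliosis and 0.74 for brain. The summed levels of LA and BSA overlapped at day 26 for each of these lists. The brain list summed to 15.0 and 54.5 CPM in LA and 17.7 and 15.8 CPM in BSA, so only LA replicate 2 was higher. The pigment list summed to 707 and 272 CPM in LA and 497 and 197 CPM in BSA. Nr2e3 was at 679 and 907 CPM in LA and 605 and 609 CPM in BSA at day 26, and its LA effect at day 32 with FGF1 differed from this one by −0.81 (95% interval −1.28 to −0.34). Nr2e3 had been picked out by its small p at day 32 with FGF1, which is part of this difference. For Gpr149, an orphan receptor gene, the difference was −2.34 (95% interval −3.50 to −1.17), and its LA effect at day 26 was positive.

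The other fatty acid offered a last comparison. DHA+FGF1 (2 libraries) against the same BSA+FGF1 libraries gave 0 genes after adjustment (0%) and 361 at an unadjusted p under 0.05 (1.71%), and LA+FGF1 against DHA+FGF1 gave 0 (0%) and 935 (4.43%). The DHA and LA comparisons share the BSA+FGF1 libraries, so their values stand side by side only. For Scd1 the log2 difference was 0.61 for LA and 0.04 for DHA, for Sema6d 1.25 and −0.50, and for Nr2e3 −0.44 and 0.11. Other genes had the same sign with both fatty acids, among them Nefm at −0.78 and −0.53 and Pdgfra at 1.32 and 0.55. The mesenchyme list had medians of 1.32 for LA and −0.50 for DHA, and the rod list −0.21 and 0.27. For the pigment list they were 0.77 and −0.69, for the brain list 1.78 and −0.22, and for the gliosis list 0.66 and 0.24.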

How the data were processed

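Poly(A) RNA of 23 libraries in 9 groups was sequenced. The tools named in the submitters' processing notes were kallisto 0.45.0, edgeR and Trimmomatic 0.36, on GRCm38.p6, with no order of steps given. The gene table deposited by the authors holds expected counts (estimated counts) for 52143 genes. The authors also deposited a normalized CPM signal for 18 libraries, which was used here only to learn which libraries they kept. In the symbol column 28 symbols stood as dates, and 27 were restored by gene ID.

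Counts were rounded, filtered with filterByExpr of edgeR 4.0.16 (R 4.3.3) on the 9 groups (21124 genes), TMM-scaled and fitted with the quasi-likelihood model over all 23 libraries, with one mean per group plus replicate number nested in day and FGF1 state (9 residual degrees of freedom). P-values are two-sided and adjusted by Benjamini-Hochberg over all genes at 0.05. Standard errors come from the log2 difference and F, and 95% intervals from the t distribution. Pair differences are in log2 CPM with a prior count of 2. Same-numbered libraries of the 2 groups deviated together (r of 0.713, 0.693 and 0.832 over genes), which with the rule of the comparison gave the block. Leaving replicate 3 aside, the difference of replicates 1 and 2 correlated between groups at r = 0.223.

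Named genes were, per direction, the 10 with the smallest p, an average log2 CPM of at least 1, 1 sign in all pairs and no predicted-gene name, up to 4 per list by p, the 3 smallest p of each comparison of LA effects, and a panel of lipid, FGF and retinal genes, of which some are not reported here. Other genes were chosen after their values were seen, as examples of their list. The members, the 40 lists and the panel were chosen with earlier results of these data known. The lists were written from general knowledge and are described by counts and medians, with no set test. On simulated counts (20822 genes), the test found 32% of 2-fold and 62% of 4-fold changes, with 6 false calls. There 4.56% of unchanged genes had an unadjusted p under 0.05, more than the share of all genes in the data. DESeq2 1.42.0, limma 3.58.1, other scalings, filters and subsets were alternatives, and limma voom without weights was added after seeing the data. Promoters are RefSeq's on GRCm38.p6. Figures used matplotlib 3.10.9.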

Additional observations from a re-analysis of the deposited data

How the results depend on the processing

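The count of changed genes between LA+FGF1 and BSA+FGF1 was 0 by edgeR with RLE scaling, without the filter on low counts, with library set as a term, with the 18 libraries kept by the authors and with the 6 libraries alone, and with limma voom without quality weights (617 at an unadjusted p under 0.05). It ranged from 0 to 0 over the fits that leave out 1 library or 1 replicate of both groups, where a lone sample is assumed to vary like the other groups. DESeq2 called 6, limma voom with quality weights 197, and edgeR on the deeper libraries only called 5 (Apobec3, Aspg, Ecel1, Gpr37l1 and Rfx4, all higher in LA+FGF1), and the causes of the DESeq2 and deeper-library counts were not tested. Of the 197, all had the same sign in the edgeR fit and 157 had an unadjusted p under 0.05 there. Both fits used the same libraries and design, so this overlap adds no support. In all 3 pairs 134 of the 197 were higher and 13 were lower. Without the replicate block the edgeR count was also 0, with 260 genes at an unadjusted p under 0.05, and for the 6 libraries alone it was 0 both with the block (741) and without it (96). For the LA effect with minus without FGF1, DESeq2 called 24 and limma voom with weights 1, and for day 32 minus day 26 DESeq2 called 6 and limma voom 0; all other fits gave 0, and the fits that leave out a library or replicate 0 to 0. Several DESeq2 calls were of genes at or near 0 counts in a group. Of the 196 named genes, 176 kept their sign in all 20 alternatives. The other 20 were genes with small or discordant differences such as Fads2, Angptl4 and Olig2. The 20 genes with the smallest p kept theirs as well. They had been chosen for 1 sign in all 3 pairs, so refitting the same libraries could hardly turn it. The depth and the 3 pairs limit detection to large differences: the median 95% interval reached 0.74 on the log2 scale to either side before adjustment.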

Other observations

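Genes of other functions gave further values. Cd36, a scavenger receptor and fatty acid transporter of macrophages and endothelium, was at 0.206, 1.68 and 5.06 CPM in LA+FGF1, against 0.210 and 0.484 CPM in BSA+FGF1 replicates 1 and 2 and a listed 0 in replicate 3. Nqo1, a quinone reductase induced by oxidative stress, was at 7.33, 7.29 and 5.83 CPM in LA+FGF1, against 2.88, 2.42 and 5.12 CPM in BSA+FGF1, with a log2 difference of 1.06 (95% interval 0.06 to 2.06). All LA+FGF1 libraries lay above all BSA+FGF1 libraries for Nqo1, and the 20 genes of antioxidant defence had a median of 0.13 with 15 above 0. Wnt7b, a Wnt ligand, was at 2.17, 11.8 and 1.43 CPM in LA+FGF1, against 2.15, 1.06 and 0.301 CPM in BSA+FGF1, and was level in pair 1. The Wnt list had a median of 0.29, which was −0.02 without pair 1, and the Notch list 0.21, which was 0.09 without pair 2, the unfolded protein and stress response list −0.06, and the hypoxia and glycolysis list −0.05.

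Microglia markers were at low levels. Of 13 microglia genes 6 were tested, C1qa was listed at 0 in 4 of the 6 libraries, and the median was −0.27. Tmem119, a microglia marker, went the other way, at 2.06, 0.420 and 0.110 CPM in LA+FGF1, against 0.0524 and 0.0440 CPM in BSA+FGF1 replicates 1 and 2 and a listed 0 in replicate 3, and limma voom with quality weights called it. The list's summed level was 4.29 to 12.2 CPM in LA+FGF1 and 6.43 to 10.1 CPM in BSA+FGF1. Of 12 endothelial genes 7 were tested, with a median of −0.08, and Cdh5, Cldn5 and Erg were among those too low to test. The list's summed level was 227, 205 and 348 CPM in LA+FGF1, against 233, 253 and 425 CPM in BSA+FGF1. Most of it was Kdr, a VEGF receptor gene that retinal cells also express, at 212, 182 and 328 CPM in LA+FGF1, against 215, 234 and 413 CPM in BSA+FGF1. Mitochondrial transcripts had a median of 0.02 over 13 genes, with pair medians of 0.41, −0.31 and −0.06, and the 20 cell cycle genes had a median of 0.08.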
